A study of Mus musculus with 1753 samples.

Results

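The genes followed here encode secreted signals of fibroblasts, read in single cells of mouse hindlimb muscle. They are the CC chemokines Ccl2, Ccl7, Ccl9 and Ccl11, the CXC chemokines Cxcl1, Cxcl12 and Cxcl14, the cytokines Il6 and Il33, and the phosphoprotein Spp1 (osteopontin). They were chosen by name, as the rows of the count table whose gene identifier carries one of these symbols, and they make up 10 of the 46517 genes in the table. The names were picked with earlier results of these data known. Counts of members called, set beside the share of all genes, are therefore a description and no independent support. All 10 were found, each with a count in at least 103 of 1753 cells.

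Chemokines are small secreted proteins that bind receptors on leukocytes and other cells and set the direction in which those cells move. CC chemokines such as Ccl2 and Ccl7 act mainly on monocytes, Ccl11 (eotaxin) on eosinophils, and Cxcl1 on neutrophils, whereas Cxcl12 acts through Cxcr4 on stem cells, lymphocytes and endothelial cells. Several of these genes, among them Ccl2, Ccl7, Cxcl1 and Il6, are known as early targets of inflammatory signals, while Cxcl12 and Cxcl14 are commonly found in resting connective tissue. In muscle, fibroblasts of the connective tissue are known as a source of such signals for immune cells and for the satellite cells that repair fibres.

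The cells came from skeletal muscle of adult male mice, 10 to 20 weeks old, and each cell was sequenced as its own Smart-seq2 library, which carries no molecular identifiers. Labels gave each cell 1 of 10 clusters, 1 of 5 strains and 1 of 8 plates. The clusters had been made by the authors from these same counts, and a difference between clusters is therefore a description and no independent support. The labels name no animal, so the strain served as the replicate. With strain as a block, p-values are set against how much the difference between classes varies over strains.

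C57BL6 (373 cells) was the strain without a reporter. Cspg4dsRED (181 cells), PdgfrbGFP (630 cells) and Acta2GFP (157 cells) carried a fluorescent transgene under the promoter of the named gene, and Acta2GFP muscle was digested with elastase in addition. The label PdgfraGFP - PdgfrbGFP pool (412 cells, the pool from here on) stands for cells combined from a Pdgfra reporter, in which GFP sits in the Pdgfra gene, and a Pdgfrb reporter, and whether its mice are independent of those labelled PdgfrbGFP was not given. All strains shared the C57Bl6/J background, all cells had been released by enzymes at 37 °C, and none had been given a treatment. Cells had been sorted for a reporter or for PDGFRα or PDGFRβ protein and against CD31, so that the shares of clusters in a strain follow the gate. The protocol text of the labels names heart where the tissue label names skeletal muscle.

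Class names followed the study. Clusters 1, 3, 5, 6 and 8 are endomysial (around single fibres, 1116 cells), clusters 2 and 9 perimysial (around fibre bundles, 328 cells), cluster 4 paramysial (60 cells), and cluster 10 (62 cells) has no class name and is marked by Ngfr and Cspg4. These 1566 cells are the fibroblasts. Cluster 7 (187 cells) holds the mural cells, the pericytes and smooth muscle cells of vessel walls. Levels are given as counts per cell scaled to 500000 counts without spike-ins, averaged over the cells of a strain and then over strains with at least 3 cells, and ± is the SD over strains.

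Marker levels followed the labels. The clusters were made from these same counts and the paper named classes by several of these genes, so this is no independent check. The summed level of 5 fibroblast markers was 8691 ± 1214 in fibroblasts and 438 ± 204 in mural cells (n = 5 strains), and that of 5 mural markers was 51.3 ± 17.6 and 4908 ± 801. The perimysial markers Tnmd, Thbs4, Scx and Col11a1 summed to 6511 ± 1718 in perimysial and 350 ± 202 in endomysial cells. The labelling was less clear in 1 group. In the 9 mural cells of C57BL6 the 8 immune markers summed to 402.5, against 0.437 to 6.88 in the mural cells of the other 4 strains, with Cd3e and S100a8 at 0 in all mural cells. Depth ran from 46097 to 1055869 counts per cell (median 258251), with a median of 269496 in fibroblasts and 156959 in mural cells.

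Ccl2 (ENSMUSG00000035385, chr11:82035571-82037453, plus strand), Ccl7 (ENSMUSG00000035373, chr11:82045712-82047525, plus) and Ccl11 (ENSMUSG00000020676, chr11:82057823-82062955, plus) lie side by side on GRCm38, with 8259 bases between the first pair and 10298 between Ccl7 and Ccl11. Ccl9 (ENSMUSG00000019122, chr11:83572919-83578636, minus) is on the same chromosome. Cxcl1 (ENSMUSG00000029380, chr5:90891241-90893115, plus), Spp1 (ENSMUSG00000029304, chr5:104435118-104441050, plus) and Il6 (ENSMUSG00000025746, chr5:30013114-30019981, plus) are on chromosome 5. The other members are Cxcl12 (ENSMUSG00000061353, chr6:117168535-117181367, plus), Cxcl14 (ENSMUSG00000021508, chr13:56288643-56296551, minus) and Il33 (ENSMUSG00000024810, chr19:29925114-29960718, plus). Reads count toward a gene over all its exons, untranslated parts included. For Spp1, 18.75% of the exonic bases overlap the predicted gene Gm42793 on the same strand, so part of its reads could be split, and its values are uncertain to that extent.

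Promoter windows of 4 members are shown, each the 250 bases before the RefSeq start on GRCm38.p6, read 5′ to 3′ on the strand of the gene. Of the 7 members with a window in the RefSeq table, Cxcl1, Il6 and Ccl9 are those whose window held a match to the NF-kB motif, and Cxcl12 is the member with no match to any of 3 motifs searched whose level differed least between fibroblasts and mural cells. Capitals mark the matches.
Cxcl1, chr5:90890995-90891244, plus: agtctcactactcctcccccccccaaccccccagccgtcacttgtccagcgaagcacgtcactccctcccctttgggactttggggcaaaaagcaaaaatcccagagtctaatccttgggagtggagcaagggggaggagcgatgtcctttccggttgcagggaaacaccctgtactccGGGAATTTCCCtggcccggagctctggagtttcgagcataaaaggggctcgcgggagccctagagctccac
Il6, chr5:30012864-30013113, plus: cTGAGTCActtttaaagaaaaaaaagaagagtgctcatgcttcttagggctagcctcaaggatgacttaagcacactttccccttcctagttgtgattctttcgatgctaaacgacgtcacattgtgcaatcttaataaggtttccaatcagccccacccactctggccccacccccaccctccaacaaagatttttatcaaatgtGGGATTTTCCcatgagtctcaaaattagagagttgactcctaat
Ccl9, chr11:83578637-83578886, minus: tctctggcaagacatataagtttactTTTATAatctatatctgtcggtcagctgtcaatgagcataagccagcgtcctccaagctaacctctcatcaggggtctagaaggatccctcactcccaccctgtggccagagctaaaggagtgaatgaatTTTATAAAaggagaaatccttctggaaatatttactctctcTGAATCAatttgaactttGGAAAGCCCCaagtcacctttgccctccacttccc
Cxcl12, chr6:117168285-117168534, plus: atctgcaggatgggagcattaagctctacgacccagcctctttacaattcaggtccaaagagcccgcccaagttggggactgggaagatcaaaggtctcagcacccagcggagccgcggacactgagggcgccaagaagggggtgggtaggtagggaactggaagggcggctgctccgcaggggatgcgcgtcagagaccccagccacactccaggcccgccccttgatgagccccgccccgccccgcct

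Both strands were searched for the NF-kB motif, for the AP-1 motif TGANTCA and for the TATA box TATAAA. In Cxcl1 a single NF-kB site at 71 to 62 bases before the start was read on both strands, as GGGAATTTCC and, 1 base further on, GGAATTTCCC. Il6 held GGGATTTTCC at 44 to 35 bases before the start and the AP-1 match TGAGTCA at 249 to 243 bases. Ccl9 held an NF-kB match at 35 to 26 bases on the minus strand, the AP-1 match TGAATCA at 53 to 47 bases, and 3 TATA matches, of which those at 94 to 89 and 92 to 87 bases overlap. Of 32851 windows of this length, 3.90% held the NF-kB motif, 6.75% the AP-1 motif and 12.4% the TATA box. A match is a stretch of letters and was not tested as a site.

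The members fell into a widely detected group and a group carried by few cells. Cxcl12 had a count in 93.4% of the 1753 cells, Ccl11 in 90.3%, Cxcl14 in 88.4%, Cxcl1 in 69.9% and Il33 in 58.5%. Spp1 had a count in 24.5% of cells, Ccl2 in 16.1%, Ccl7 in 15.6%, Il6 in 14.1% and Ccl9 in 5.88%. Among the 1566 fibroblasts, the 16 cells with the highest level of a gene held 53.6% of its summed level for Ccl2, 52.3% for Ccl7, 51.5% for Il6 and 94.0% for Ccl9, against 6.59% for Ccl11 and 7.73% for Cxcl12. A mean of Ccl2, Ccl7, Ccl9 or Il6 over a cluster therefore rests on few cells.

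Per kilobase of exon, so that genes can be compared, the mean level over strains in endomysial cells was 371 for Ccl11, 282 for Cxcl14, 62.7 for Cxcl1, 46.3 for Cxcl12 and 28.5 for Il33. The remaining members were at 10.2 (Ccl7), 8.5 (Ccl2), 3.4 (Il6), 1.0 (Spp1) and 0.1 (Ccl9) on this scale. In cluster 10 the order was another one, with Ccl11 at 770, Cxcl1 at 342, Spp1 at 222, Il33 at 172 and Ccl7 at 143. Ccl11 led in both groups.

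**Figure D1:**
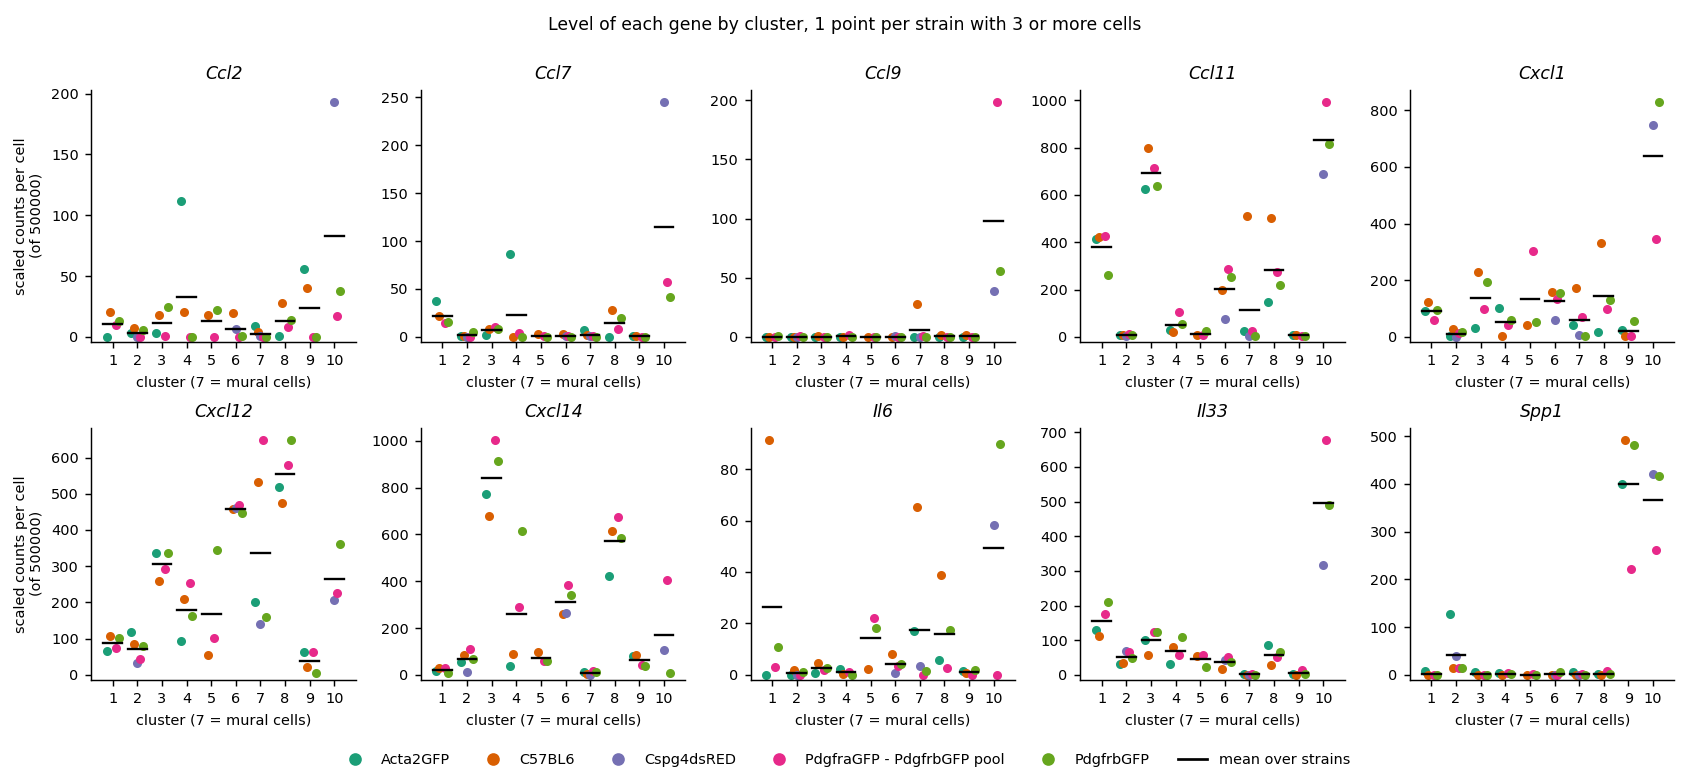
Level of each of the 10 members (scaled counts per cell, of 500000) on the vertical axis by cluster 1 to 10 on the horizontal axis. Each point is the mean over the cells of a strain with at least 3 cells in that cluster, and the black line is the mean over strains. Ccl9 is at 38.9 or more in cluster 10 and at 27.9 or less elsewhere, Spp1 in clusters 9 and 10 lies between 223 and 492, and Ccl11 is at most 23.2 in clusters 2, 5 and 9.

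Ccl11, which attracts eosinophils, was high in cluster 10 and in endomysial cells other than cluster 5, and nearly absent from perimysial cells. Its level in cluster 10 was 689 in Cspg4dsRED, 994 in the pool and 817 in PdgfrbGFP. In cluster 3 it was 627 in Acta2GFP, 800 in C57BL6, 715 in the pool and 639 in PdgfrbGFP. These ranges overlapped, so the order of the first 2 clusters was not resolved. Cluster 1 followed at 382 ± 79.5 (n = 4), below every strain of cluster 3. Clusters 8 (284 ± 154) and 6 (203 ± 91.5) came next, then cluster 4 at 52.1 ± 38.1. At the low end were cluster 5 with 6.94 in C57BL6, 7.10 in the pool and 23.2 in PdgfrbGFP, cluster 2 at 7.46 ± 3.82 (n = 5) and cluster 9 at 5.85 ± 1.22 (n = 4). At the detection level of the study, 100 scaled counts, Ccl11 was found in 61 of 62 cells of cluster 10 (98.4%, exact 95% interval 91.3 to 99.96) and 428 of 440 of cluster 3 (97.3%, 95.3 to 98.6). It was found in 0 of 328 perimysial cells, which allows a share of up to 0.915%.

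Ccl2 and Ccl7, neighbours that both attract monocytes, had their highest mean in cluster 10. Ccl2 there was 193 in Cspg4dsRED, 17.5 in the pool and 37.7 in PdgfrbGFP, and Ccl7 was 245, 56.9 and 41.1 in the same strains. The spread between strains was as large as the mean for both genes, and Cspg4dsRED was the highest for both. Of 62 cells of cluster 10, 12 reached 100 scaled counts of Ccl2 (19.4%) and 20 reached it for Ccl7 (32.3%), compared with 34 (3.05%) and 32 (2.87%) of 1116 endomysial cells. In endomysial cells Ccl2 was 2.49 in Acta2GFP, 21.4 in C57BL6, 6.08 in Cspg4dsRED, 3.02 in the pool and 15.6 in PdgfrbGFP, and Ccl7 was 5.02, 14.4, 0.931, 9.22 and 11.2. Cluster 4 came second for both means, but its values rest on Acta2GFP, where Ccl2 was 111 and Ccl7 86.8 over 6 cells, with 97.5% of the Ccl7 level from 1 cell.

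Ccl9, a chemokine best known from myeloid cells, was found mainly in cluster 10. Its level was 38.9 in Cspg4dsRED, 199 in the pool and 55.6 in PdgfrbGFP, whereas no other fibroblast cluster had a mean above 0.516. Of the 15 fibroblasts at or above 100 scaled counts, 14 were in cluster 10 (22.6% of its cells) and 1 was in cluster 8. Cluster 10 held 92.7% of the sum of the 10 cluster means. The next cluster was 7, where C57BL6 stood at 27.9 and the other strains between 0.0187 and 0.531. Immune markers were higher in those same C57BL6 cells, as given above, and their part in this value was not tested. In cluster 10 the 8 immune markers summed to 5.60 on average (range 0.347 to 10.6 over strains), and Ptprc, Adgre1, Cd3e, Cd79a and S100a8 were at 0. Of the 50-base words of Ccl9, 1.97% also occur in other genes.

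Among the CXC chemokines, Cxcl1, which attracts neutrophils, was highest in cluster 10. It stood there at 748 in Cspg4dsRED, 344 in the pool and 830 in PdgfrbGFP. All 3 values were above every strain of the next cluster, 8, which was at 18.3 in Acta2GFP, 331 in C57BL6, 99.0 in the pool and 131 in PdgfrbGFP. The other endomysial clusters had means between 91.8 and 138 that overlapped, and cluster 2 had the lowest, 11.5 ± 10.5 (n = 5). At 100 scaled counts Cxcl1 was found in 36 cells of cluster 10 (58.1%), in 355 endomysial cells (31.8%) and in 17 perimysial cells (5.18%).

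Cxcl12, the ligand of Cxcr4 that holds stem cells in their niches, was highest in clusters 8 and 6. Cluster 8 was at 517 in Acta2GFP, 474 in C57BL6, 579 in the pool and 648 in PdgfrbGFP. Cluster 6 was at 459 in C57BL6, 461 in Cspg4dsRED, 469 in the pool and 446 in PdgfrbGFP. The ranges did not overlap, and the strains of cluster 6 lay close together (458 ± 9.56). Cluster 1 was the low endomysial cluster for Cxcl12, at 67.2, 108, 75.2 and 101 in Acta2GFP, C57BL6, the pool and PdgfrbGFP, close to the 72.0 ± 34.5 of perimysial cluster 2. Mural cells reached 337 ± 236 (n = 5), and Cxcl12 was found at 100 scaled counts in 46.5% of them, against 85.4% of the cells of cluster 8.

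Cxcl14, a chemokine found in many resting epithelia and stroma, followed another order. Cluster 3 led with 775 in Acta2GFP, 677 in C57BL6, 1004 in the pool and 916 in PdgfrbGFP. Cluster 8 came second at 573 ± 108 and then cluster 6 at 313 ± 61.03 (n = 4 each), and the ranges of these 3 clusters did not overlap. Cluster 1 lay far below at 15.2 in Acta2GFP, 29.3 in C57BL6, 30.6 in the pool and 9.04 in PdgfrbGFP. Endomysial clusters 1 and 3 thus both held Ccl11 but stood at opposite ends for Cxcl14, with 3.11% and 73.0% of cells at 100 scaled counts. In cluster 10, Cxcl14 had an SD over strains (207) above its mean (172), at 104 in Cspg4dsRED, 404 in the pool and 6.95 in PdgfrbGFP.

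Il33, an alarmin of the interleukin 1 family that is kept in the nucleus, was highest in cluster 10, at 317 in Cspg4dsRED, 678 in the pool and 491 in PdgfrbGFP. Cluster 1 followed, below that range, at 129 in Acta2GFP, 112 in C57BL6, 174 in the pool and 211 in PdgfrbGFP. The clusters from 3 down to 6 formed a run of overlapping levels between 102 ± 31.8 and 36.7 ± 15.1. Cluster 9 lay below all of these at 1.28 in Acta2GFP, 0.697 in C57BL6, 13.9 in the pool and 1.24 in PdgfrbGFP, and 94.7% of the pool's value came from 1 cell. Il33 was found at 100 scaled counts in 67.7% of the cells of cluster 10, in 50.9% of cluster 1 and in 0 of 187 mural cells, which allows up to 1.60%.

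Il6, the cytokine that drives the acute phase, was low and uneven throughout. Its mean was 49.3 ± 45.4 in cluster 10, 26.3 ± 43.6 in cluster 1, 17.5 ± 27.6 in mural cells and 16.1 ± 16.4 in cluster 8, and the ranges of these clusters overlapped. In cluster 10 it was 58.1 in Cspg4dsRED, 0.0993 in the pool and 89.6 in PdgfrbGFP, so that 1 of 3 strains was nearly without it. In total 37 of 1566 fibroblasts reached 100 scaled counts (2.36%).

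Spp1, which encodes osteopontin, a matrix protein and ligand of integrins and Cd44, marked clusters 9 and 10. Its level in cluster 9 was 399 in Acta2GFP, 492 in C57BL6, 223 in the pool and 482 in PdgfrbGFP. In cluster 10 it was 421 in Cspg4dsRED, 261 in the pool and 416 in PdgfrbGFP. Both ranges overlapped with each other, and both lay above cluster 2, the other perimysial cluster, at 127 in Acta2GFP, 13.9 in C57BL6, 39.0 in Cspg4dsRED, 14.5 in the pool and 13.9 in PdgfrbGFP. In Acta2GFP, 96.5% of the value of cluster 2 came from 1 cell. No other cluster had a mean above 2.74. At 100 scaled counts Spp1 was found in 37 of 59 cells of cluster 9 (62.7%, exact 95% interval 49.1 to 75.0), in 33 of 62 of cluster 10 (53.2%, 40.1 to 66.02) and in 12 of 269 of cluster 2 (4.46%, 2.33 to 7.66). Intervals and limits cover counting error only.

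**Figure D2:**
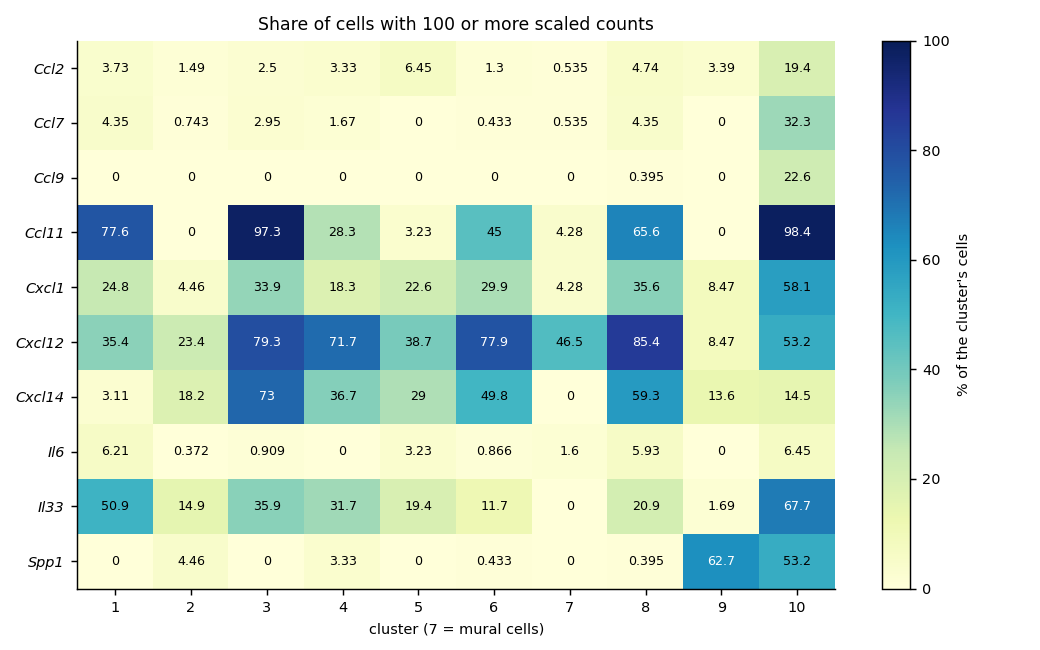
Heat map of the percentage of cells with at least 100 scaled counts of a member, with genes as rows and clusters 1 to 10 as columns. Ccl11 reaches 98.4% in cluster 10 and 97.3% in cluster 3 and 0% in clusters 2 and 9, and Spp1 exceeds 50% in clusters 9 and 10.

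Counted per cell, cluster 10 held the most members at once. Its cells had 4.26 of the 10 members at 100 scaled counts on average, and 45 of 62 (72.6%) had at least 4. In cluster 3 the mean was 3.26 and 40.0% of cells had at least 4, and in cluster 8 it was 2.83 and 28.9%. Perimysial cells held fewest among fibroblasts, with a mean of 0.680 in cluster 2 and 0.983 in cluster 9, and mural cells held 0.578. Cluster 10 had this number at a median of 187616 counts per cell, below the 272519 of cluster 3. It also had the lowest median number of genes per cell of the 10 clusters, 2696 against 4601 in cluster 3 and 4583 in endomysial cells, and the part of this in its differences was not tested.

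Within endomysial cells Ccl2 and Ccl7 met in some of the same cells. Of 34 cells with Ccl2 and 32 with Ccl7, 7 had both, which is 20.6% of the former and 21.9% of the latter, while 2.87% of all endomysial cells had Ccl7. Il6 was present in 1 of the Ccl2 cells (2.94%, against 2.87% of all) and in 3 of the Ccl7 cells (9.38%), and no Ccl2 cell had Ccl9 or Spp1. Over all levels the rank correlation of Ccl2 and Ccl7 within a plate was weak, with a median rho of 0.04 over 7 plates (−0.05 to 0.16). Cxcl1 was present in 58.8% of the Ccl2 cells, against 31.8% of all endomysial cells. In cluster 10, 9 cells had both Ccl2 and Ccl7, which is 75.0% of its Ccl2 cells and 45.0% of its Ccl7 cells. There, 12 of the 14 Ccl9 cells also had Spp1, whereas none of the 9 Cxcl14 cells had Ccl2, Ccl7 or Ccl9. Cells of cluster 10 come from 3 strains, and these counts describe the cells without a test.

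Differences between classes were then tested on counts summed per strain, with strain as a blocking term in edgeR's quasi-likelihood test. Genes were called where p, adjusted by Benjamini-Hochberg over all those tested, was under 0.05. Differences are log2 fold changes of these sums ± SE.

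Perimysial cells had less Ccl11, Cxcl14, Cxcl12 and Cxcl1 than endomysial cells and more Spp1. Of 9 members tested, 4 were called lower and 1 higher, where 3.26% of all 14121 genes tested were called lower and 2.32% higher. Ccl9 was too low to be tested. The 5 strains all pointed the same way for each of these 5 genes. Ccl11 was 493 in Acta2GFP, 472 in C57BL6, 129 in Cspg4dsRED, 538 in the pool and 376 in PdgfrbGFP in endomysial cells, and 7.62, 7.82, 1.87, 10.2 and 6.03 in perimysial cells. The groups did not overlap, and the difference was −6.05 ± 0.19 (adjusted p = 1.73e-05, edgeR).

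Cxcl14 was 616, 432, 275, 682 and 566 in the endomysial cells of Acta2GFP, C57BL6, Cspg4dsRED, the pool and PdgfrbGFP, and 72.3, 83.7, 11.03, 95.1 and 63.9 in their perimysial cells. The difference was −3.01 ± 0.30 (adjusted p = 0.00124, edgeR). Cxcl12 was 368, 333, 466, 312 and 415 against 81.4, 81.1, 30.6, 47.8 and 67.4 in the same order, a difference of −2.53 ± 0.39 (adjusted p = 0.00906). For neither gene did the classes overlap. Cspg4dsRED, with 18 perimysial cells, had the lowest perimysial level of both.

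Cxcl1 was 44.3, 215, 79.6, 99.8 and 149 in endomysial and 16.9, 24.1, 0.769, 9.91 and 22.5 in perimysial cells, and the difference was −3.03 ± 0.64 (adjusted p = 0.036, edgeR). This call was lost without C57BL6 (−3.06, adjusted p = 0.144), without the pool (−2.91, 0.150) without PdgfrbGFP (−3.27, 0.0969) and with cells weighted alike (−3.19, 0.0541). Spp1 moved the other way. It was 306 in Acta2GFP, 51.6 in C57BL6, 142 in Cspg4dsRED, 66.5 in the pool and 83.9 in PdgfrbGFP in perimysial cells, and 4.71, 0.183, 0.349, 1.22 and 1.53 in endomysial cells. The difference was 7.27 ± 0.61 (adjusted p = 0.000635, edgeR). Endomysial Spp1 was near the floor, with 0.183 in C57BL6, so Spp1 passed the filter on low counts through perimysial cells, where it is high. Its call describes that high level and is no independent support. The members that were not called had −3.43 ± 1.07 (Ccl7), −3.56 ± 1.32 (Il6), −1.43 ± 1.79 (Ccl2) and −0.89 ± 0.60 (Il33). DESeq2 called Ccl7 (adjusted p = 0.00129) and Il6 (0.00665) lower as well. Pdgfra, used in the sort, averaged 13.8 in perimysial and 352 in endomysial cells.

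**Figure D3:**
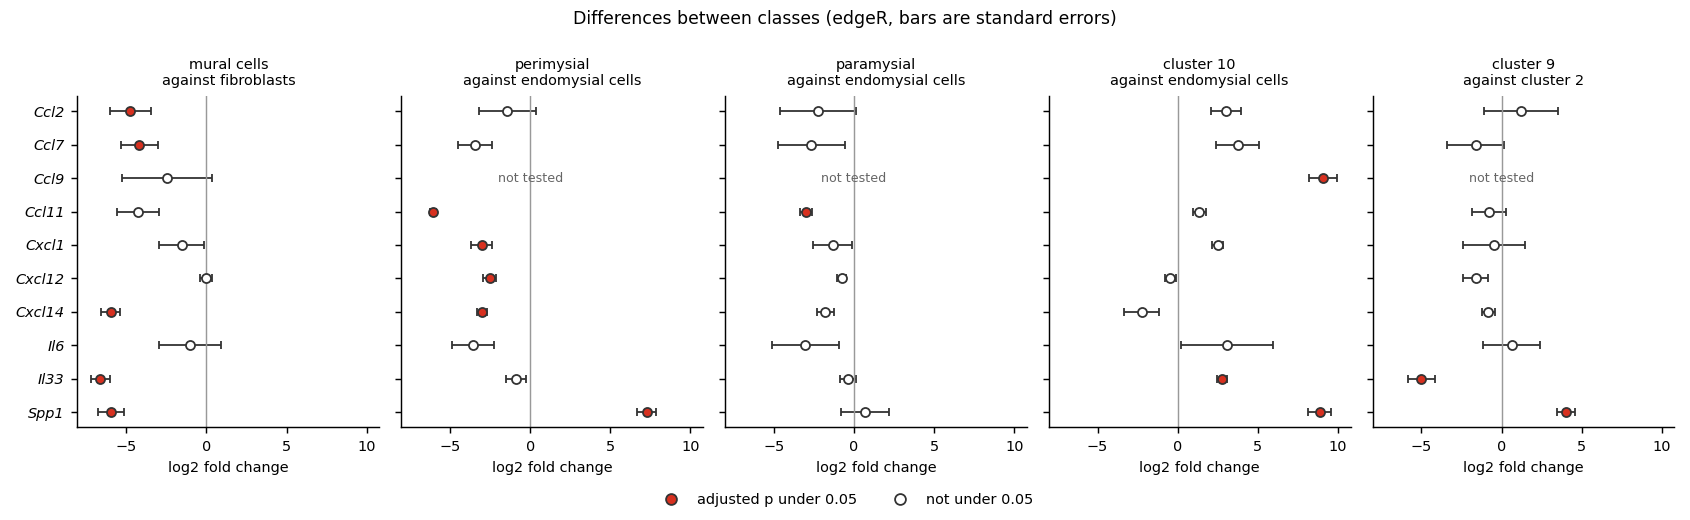
Log2 fold change of each member (horizontal axis, bars are SE, edgeR) in 5 comparisons of summed counts, 1 panel each. Filled red points have an adjusted p under 0.05 and open points do not. Spp1 stands at 7.27 for perimysial against endomysial cells and Ccl11 at −6.05.

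Cluster 10 had more Ccl9, Spp1 and Il33 than endomysial cells in the 3 strains that held both. Of 10 members tested, 3 were called higher and 0 lower by edgeR, where 0.265% of 12455 genes were called higher and 0.177% lower. An unadjusted p under 0.05 was found for 7 members. No share over all genes is given for such counts, here or below, so they are no result about the members or lists. DESeq2 called 7 members and 993 genes in all, where edgeR called 55 genes, so the shares above do not apply to its calls. For Ccl9 the endomysial level was 0.259 in Cspg4dsRED, 0.168 in the pool and 0.157 in PdgfrbGFP, far below the values of cluster 10 given above, and the difference was 9.06 ± 0.87 (adjusted p = 0.0169, edgeR). The endomysial sum of Cspg4dsRED rested on 3 counts, so the size of this difference is loosely held. Endomysial Ccl9 was too low to pass the filter on low counts, so Ccl9 was tested only through cluster 10, where it is high. Its call describes that level and is no independent support. Spp1 differed by 8.86 ± 0.72 (adjusted p = 0.0127) and Il33 by 2.75 ± 0.32 (adjusted p = 0.0325). Each was higher in 3 of 3 strains. Endomysial Spp1 was near the floor as well, at 0.349 in Cspg4dsRED. Spp1 passed the filter through cluster 10, where it is high, so its call too describes that level and is no independent support. The endomysial cells behind these differences were not of 1 kind, as 46 of 51 in Cspg4dsRED and 53 of 302 in the pool were of cluster 6, where Il33 was 36.7 ± 15.1 (SD, n = 4) against 102 ± 31.8 in cluster 3.

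These calls depended on PdgfrbGFP, which had 8 cells in cluster 10. Without it 0 of all genes and 0 members were called by edgeR, where 803 genes, 7 members among them, had an unadjusted p under 0.05. The differences stayed at 9.54 for Ccl9 (adjusted p = 0.137), 8.62 for Spp1 (0.137) and 2.97 for Il33 (0.203). Ccl9 also fell short without the pool (8.25, 0.0549). Cxcl1 was the nearest miss, at 2.48 ± 0.36 (adjusted p = 0.0631) and higher in 3 of 3 strains. It was called without Cspg4dsRED (2.01, adjusted p = 0.000956), without the pool (2.81, 0.0145) and by DESeq2 (2.62, 2.36e-07). Ccl7 (3.74 ± 1.35), Ccl2 (3.01 ± 0.96) and Ccl11 (1.33 ± 0.40) were higher in 3 of 3 strains without a call by edgeR, and DESeq2 called each of them. Cxcl14 was lower in 3 of 3 strains (−2.25 ± 1.11, adjusted p = 0.692), Cxcl12 had −0.47 ± 0.33 and Il6 3.07 ± 2.88.

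The summed level of immediate early genes, known to respond within minutes to stress or dissociation, was higher in cluster 10 than in endomysial cells in each strain that held both. For the 22 genes of the list it was 25880 in Cspg4dsRED, 8699 in the pool and 18616 in PdgfrbGFP in cluster 10, against 4357 to 8325 over the strains in endomysial cells. Of the 22, 2 were called higher by edgeR, Btg2 (2.96, adjusted p = 0.0263) and Nr4a1 (2.38, adjusted p = 0.0127), and the list's median log2 fold change was 1.22, against −0.41 for all genes. An unadjusted p under 0.05 was found for 11 of the 22, and DESeq2 called 10. A list of 13 NF-kB target genes summed to 2575 ± 1059 in cluster 10 and 1098 ± 371 in endomysial cells, with a median of −0.08, and edgeR called 0 of them (5 at an unadjusted p under 0.05, 7 by DESeq2). Of the 3 strains, the pool had the lowest immediate early sum. It also had the lowest Ccl2, Cxcl1, Il6 and Spp1 and the highest Ccl9, Ccl11, Cxcl14 and Il33. Cspg4dsRED had the highest sum, the highest Ccl2, Ccl7 and Spp1, and the lowest Ccl9, Ccl11 and Il33. The part of the immediate early and NF-kB genes in the members' levels was not tested. In PdgfrbGFP the 4 endothelial markers summed to 157 in cluster 10, with 99.1% from 1 cell, and the 3 calls were kept without cells that held Ptprc or Pecam1. Il6, which was not called, turned to −1.40 without them.

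Paramysial cells had less Ccl11 than endomysial cells. Cluster 4 was at 29.0 in Acta2GFP, 21.4 in C57BL6, 106 in the pool and 52.4 in PdgfrbGFP, below the endomysial level in 4 of 4 strains. Of 9 members tested it was the 1 called lower, and 0 were called higher (3 members had an unadjusted p under 0.05), where 0.0206% of 14533 genes were called lower and 0.0757% higher. The call held in 11 of 11 alternatives. Cells were few outside the pool, with 6, 3 and 4 in Acta2GFP, C57BL6 and PdgfrbGFP. The other members ranged from −3.05 (Il6) to 0.70 (Spp1) with adjusted p-values of 0.389 or more.

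The endomysial clusters differed among themselves in Ccl11, Cxcl14, Cxcl12 and Il33. A single F test per gene over clusters 1, 3, 5, 6 and 8 called these 4 of 10 members, where 5.41% of 16520 genes were called. The fitted range between the highest and the lowest cluster was 6.13 for Ccl11 (cluster 3 over 5, adjusted p = 5.92e-05), 5.56 for Cxcl14 (3 over 1, 5.08e-06), 2.69 for Cxcl12 (8 over 1, 0.00312) and 2.09 for Il33 (1 over 6, 0.0247), all by edgeR. The median range of all genes was 1.98. The 4 members did not share a top or a bottom cluster throughout, and cluster 1 was at the bottom for Cxcl12 and Cxcl14 and at the top for Il33.

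Calls of Cxcl12 and Il33 leaned on single strains. Cxcl12 was not called without the pool (2.61, adjusted p = 0.0851), nor was Il33 without Acta2GFP (2.11, 0.0766), the pool (2.30, 0.248) or PdgfrbGFP (2.00, 0.0638). Cxcl1 had the smallest range, 0.34 (adjusted p = 1), so that no difference between endomysial clusters was detectable for it. Ccl7 had a range of 5.25 from cluster 1 down to cluster 5 (adjusted p = 0.214) and was called by DESeq2 (0.0163).

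The 2 perimysial clusters were told apart by Spp1 and Il33. In 4 of 4 strains Spp1 was higher in cluster 9 than in cluster 2 (4.04 ± 0.58, adjusted p = 0.022, edgeR), and Il33 was lower (−5.00 ± 0.85, adjusted p = 0.0407). These were 1 member higher and 1 lower of 9 tested, where 0.363% of 11843 genes were called higher and 0.557% lower. Il33 was near the floor in cluster 9, down to 0.697, and passed the filter on low counts through cluster 2, where it is higher. Both calls depended on single strains. Spp1 was lost without C57BL6 (3.66, adjusted p = 0.1201), the pool (3.96, 0.122) or PdgfrbGFP (3.69, 0.108), and Il33 without Acta2GFP (−4.67, 0.159), C57BL6 (−4.57, 0.182) or PdgfrbGFP (−4.75, 0.201). With plates as units 0 members were called (Spp1 4.21, 0.0747 and Il33 −5.02, 0.128, 3 members at an unadjusted p under 0.05), and likewise with cells weighted alike (Spp1 3.95, 0.0526 and Il33 −4.61, 0.0518). The direction was the same each time.

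Mural cells had less Cxcl14, Il33, Spp1, Ccl2 and Ccl7 than fibroblasts. Of 10 members, 5 were called lower and 0 higher by edgeR (6 members had an unadjusted p under 0.05), where 9.27% of 13880 genes were called lower and 6.15% higher. Cxcl14 was 10.7, 3.02, 0.464, 18.2 and 11.04 in the mural cells of Acta2GFP, C57BL6, Cspg4dsRED, the pool and PdgfrbGFP, and 393, 284, 173, 573 and 485 in their fibroblasts, with a difference of −5.97 ± 0.59 (adjusted p = 0.00042, edgeR). Il33 was 1.57, 0.341, 0.721, 3.09 and 0.758 against 64.3, 41.2, 144, 125 and 98.1, a difference of −6.62 ± 0.57 (adjusted p = 0.000249). Spp1 differed by −5.96 ± 0.80 (adjusted p = 0.00172). The groups did not overlap for these 3 genes, and the calls held in 12 of 12 alternatives each. Mural Spp1 fell to 0 and mural Il33 to 0.341 in their lowest strain, so both genes passed the filter on low counts through the fibroblasts, where they are high. Their calls describe that level and are no independent support.

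Ccl2 (−4.76 ± 1.28, adjusted p = 0.0375) and Ccl7 (−4.21 ± 1.16, 0.041) were lower in 5 of 5 strains but near the threshold. In their lowest strain the mural levels were 0 for Ccl2 and 0.130 for Ccl7, so these genes also passed the filter through the fibroblasts. Ccl2 was not called without Cspg4dsRED (−3.87, adjusted p = 0.124), the pool (−4.33, 0.0887) or PdgfrbGFP (−4.09, 0.122), and Ccl7 not without Cspg4dsRED (−3.42, 0.158), the pool (−4.00, 0.111) or PdgfrbGFP (−3.61, 0.132). With cells weighted alike neither was called (adjusted p = 0.0540 for Ccl2 and 0.0757 for Ccl7). Cxcl12 was not called, with a difference of −0.05 ± 0.38 (adjusted p = 0.953) and a direction that changed with the setting. It was higher in the mural cells of C57BL6 and the pool and lower in those of the other strains, so the mean hides opposite differences. Its mural level was 201 in Acta2GFP, 532 in C57BL6, 141 in Cspg4dsRED, 649 in the pool and 159 in PdgfrbGFP, and its fibroblast level was 252, 227, 299, 277 and 361.

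Ccl11 was lower in the mural cells of 4 of 5 strains (−4.29 ± 1.31, adjusted p = 0.0613, edgeR). Its mural level was 23.9 in Acta2GFP, 510 in C57BL6, 2.02 in Cspg4dsRED, 24.3 in the pool and 4.46 in PdgfrbGFP. Without C57BL6 the difference was −5.27 and was called (adjusted p = 0.0084). In that strain 5 of 9 mural cells reached 100 scaled counts of Ccl11, and 4 of 9 reached 100 for the immune markers together, whose part in the value was not tested. Cxcl1 (−1.55 ± 1.39), Il6 (−1.01 ± 1.93) and Ccl9 (−2.45 ± 2.82) were not called and varied widely between strains.

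Other genes of the same pathways were read from lists of 31 further chemokine ligands, 29 receptors and 25 other cytokines. Most ligands were too low to be tested, with 5 to 14 of 31 tested per comparison. In perimysial against endomysial cells 2 of 9 ligands were called, both lower, Cxcl13 (−6.86, adjusted p = 0.0069), which guides B cells, and Ccl8 (−6.59, 0.0125), a relative of Ccl2. Among 11 receptors, the scavengers Ackr1 (−6.71, adjusted p = 0.0020) and Ackr2 (−5.37, 0.0029) and the Il6 receptor chain Il6ra (−4.69, 0.0109) were lower, and Cd44, a receptor of osteopontin, was higher (1.41, 0.0039). Among 13 other cytokines, Il18 (−6.35), Kitl (−5.84) and Tnfsf13b (−5.31) were lower and Il34 higher (2.49). The medians were −1.44 for ligands, −0.94 for receptors and −2.65 for other cytokines, against −0.19 for all genes.

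In mural cells against fibroblasts, Cxcl16 (−4.78) was the 1 of 7 ligands called, and Ackr2 (−7.05), Ackr1 (−5.95), Cd44 (−3.52) and Ackr3 (−2.37), a second receptor of Cxcl12, were the 4 of 11 receptors called, all lower. Of 11 other cytokines, 5 were called lower, led by Lif (−7.00) and Clcf1 (−5.41) of the Il6 family, Il15 (−4.54) and Tslp (−4.52). Kitl (2.18) and Il34 (2.07) were called higher, the 2 that were named after their values had been seen. Medians were −2.70, −2.37 and −4.45 for the 3 lists, against −0.46 for all genes. Mural cells had less of 4 of 13 NF-kB targets, Icam1 (−5.97), Ptgs2 (−4.94), Socs3 (−2.82) and Irf1 (−2.34). Of 21 immediate early genes tested, Klf4 (−4.12), Ier2 (−1.53) and Jun (−1.47) were lower and Atf3 (1.93) higher, with a median of −0.51, while 9.27% of all genes were called lower and 6.15% higher.

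Among endomysial clusters, called ligands were Cxcl13 (range 8.64, cluster 1 over 5), the fractalkine gene Cx3cl1 (8.11, 6 over 5) and Cxcl16 (3.81, 8 over 1), 3 of 14. Called receptors were Ackr2 (9.37, 1 over 5), Ackr3 (2.97, 1 over 6), Il6ra (2.32, 1 over 6) and Il6st (1.42, 8 over 1), 4 of 12. Ackr3 was thus highest in the cluster where Cxcl12, its ligand, was lowest. Kitl (4.53) was the 1 of 15 other cytokines called, a share near the 5.41% of all genes called here. NF-kB targets Ptgs2 (4.49) and Nfkbia (1.85) were 2 of 13 called, and immediate early genes Nr4a1 (3.53), Klf2 (2.12) and Klf6 (1.27) were 3 of 22. In perimysial against endomysial cells, 2 of 13 NF-kB targets, Icam1 (−1.51) and Zfp36 (−0.73), and 3 immediate early genes, Myc (−2.03), Klf4 (−1.77) and Ier2 (−0.92), were lower, and Nr4a2 (2.62) was higher of 21 tested.

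For paramysial cells edgeR called 0 genes of the 3 pathway lists, with 2 of 10 ligands, 4 of 12 receptors and 2 of 13 other cytokines at an unadjusted p under 0.05 and 2, 3 and 3 called by DESeq2. For cluster 10 edgeR also called 0, with 0 of 5, 2 of 10 and 2 of 10 at an unadjusted p under 0.05 and 1, 2 and 0 by DESeq2. For cluster 9 against cluster 2 edgeR called 0 of 5, 6 and 6, with 1, 5 and 2 at an unadjusted p under 0.05 and 0, 4 and 2 by DESeq2.

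The level of Cxcl1 in endomysial cells varied between plates. It was 216 on the main plate of C57BL6, 79.6 on that of Cspg4dsRED and 44.3 on that of Acta2GFP. PdgfrbGFP had 175 on the plate of unseparated muscle and 112 on the plate that held both muscles, and the pool had 143 on its soleus plate and 75.8 on its gastrocnemius plate. Plates of the same strain thus stood apart. The summed level of immediate early genes on these 7 plates, in the same order, was 8116, 8325, 4357, 8458, 5842, 4765 and 5390. The Acta2GFP plate had the lowest sum and the lowest Cxcl1, while the Cspg4dsRED plate had a high sum and low Cxcl1. Outside PdgfrbGFP and the pool, nearly all cells of a strain were on 1 plate, so that strain and plate cannot be told apart.

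Soleus and gastrocnemius, a slow and a mixed muscle of the calf, were labelled apart in 2 strains. For endomysial Cxcl14 the pool had 492 in soleus (108 cells) and 788 in gastrocnemius (194 cells), whereas PdgfrbGFP had 993 (90 cells) and 432 (112 cells). For Ccl11 the pool had 399 in soleus and 616 in gastrocnemius, and PdgfrbGFP had 315 and 248. Over all endomysial cells the muscles thus differed in opposite directions in the 2 strains for both genes, and so they did for 9 of the 10 members. The share of all genes with opposite directions was not computed, so this count is no result about the members. Ccl9 (at most 0.233), Il6 (at most 5.03) and Spp1 (at most 4.13) were near the floor, and their signs carry little. The mix of clusters differed between the muscles, since in PdgfrbGFP cluster 3 held 51 of the 90 soleus cells and 19 of the 112 gastrocnemius cells. Within clusters Ccl11 was lower in soleus in both strains. In cluster 3 it was 596 in soleus and 763 in gastrocnemius in cells of the pool, and 414 and 561 in those of PdgfrbGFP, and soleus was also the lower in clusters 6 and 8 of both strains and in cluster 1 of the pool. The opposite direction of Cxcl14 remained in the means of clusters 3 and 6, where cluster 6 of PdgfrbGFP had 13 soleus and 23 gastrocnemius cells. Their shares at 100 scaled counts were close, 46.2% and 47.8%. In cluster 8 the means of PdgfrbGFP were close, 770 in soleus and 736 in gastrocnemius, and the shares went the other way (57.7% and 70.2%). In cluster 3 the pool had Cxcl14 at 753 in soleus and 1106 in gastrocnemius, whereas PdgfrbGFP had 1212 and 349. Ccl2 had the same direction in both strains over all endomysial cells, where soleus was at 7.85 and gastrocnemius at 0.337 in cells of the pool, and at 27.5 and 14.9 in those of PdgfrbGFP, but not within cluster 3, where soleus was the higher in the pool (2.14 and 0.475) and the lower in PdgfrbGFP (22.1 and 51.1). The muscles of the pool were on separate plates and those of PdgfrbGFP on 1 plate. With 2 strains no exact test could reach a p of 0.05.

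**Figure D4:**
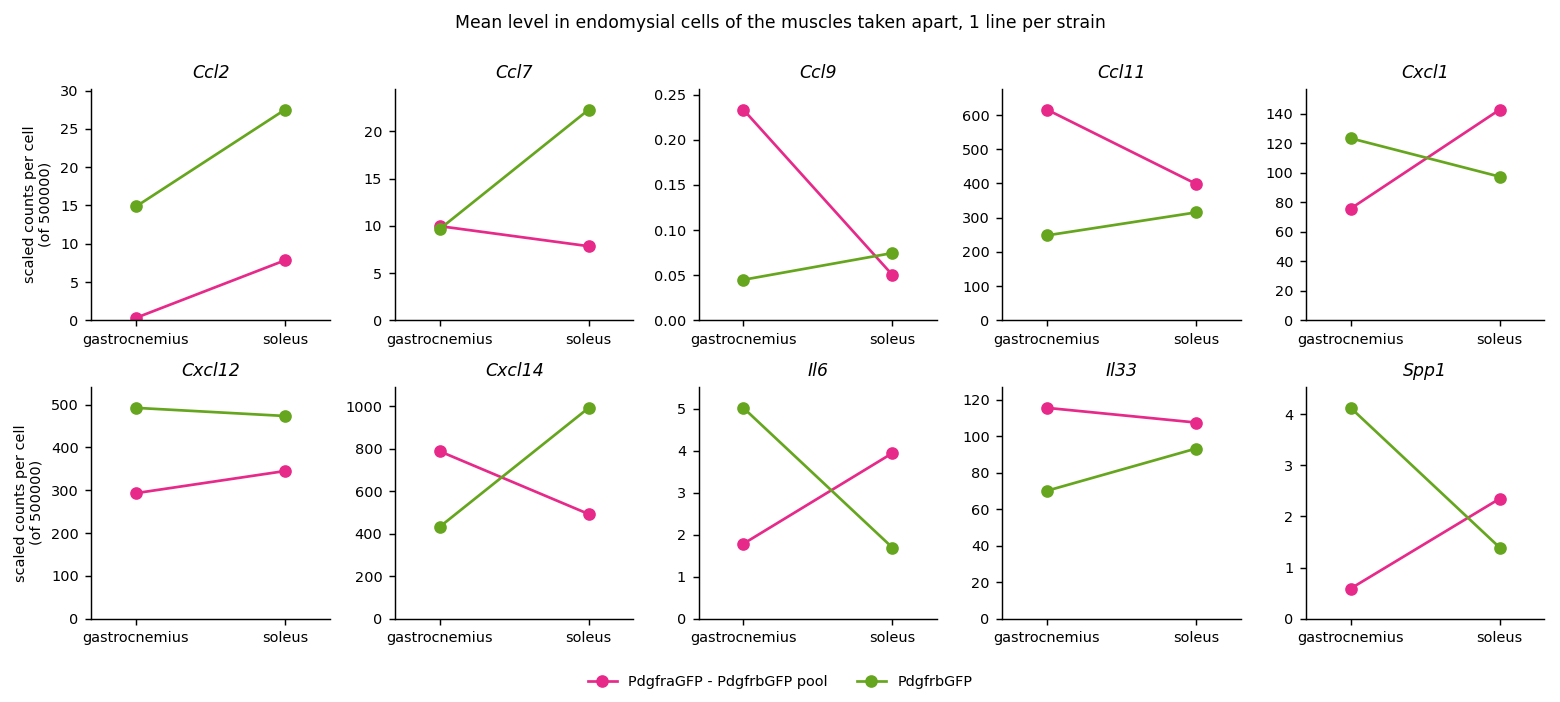
Mean level over all endomysial cells (scaled counts per cell) of each member in gastrocnemius and soleus, 1 line per strain (the pool and PdgfrbGFP). The lines slope in opposite directions for all members other than Ccl2, without regard to the different mix of clusters in the muscles.

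For each member, the genes most like it were ranked by Pearson's r of log2 CPM over 40 sums of a cluster and strain, with the strain mean removed, among 16799 genes. These points share strains and the clustering, and r is a description. Ccl11 was closest to Lamb1 (0.85), Icosl (0.84) and Cyp1b1 (0.82), Cxcl12 to G0s2 (0.76), Susd2 (0.73) and Ldb2 (0.73), and Cxcl14 to Zmynd15 (0.81), F3 (0.80) and Cxcl16 (0.79), where Zmynd15 and Cxcl16 overlap on chromosome 11. Cxcl1 was closest to Phlda1 (0.86), Gm28592 (0.83), which lies inside Phlda1, and Efnb1 (0.77). Il33 was closest to Steap3 (0.86), Htra3 (0.86) and Adamts2 (0.85). For Spp1 the overlapping Gm42793 (0.98) came before Reln (0.89) and the cartilage collagen Col2a1 (0.88).

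The genes most like the sparse members were Gm11816 (0.81), Gm15459 (0.70) and Gm7097 (0.66) for Ccl2, and Gm11816 (0.75), Efemp1 (0.72) and Gm15844 (0.71) for Ccl7. Those of Il6 included Zmynd19 (0.75) and Akr1b3 (0.74), and Ccl9 was closest to Gm43495 (0.84), Izumo1 (0.84) and Defb36 (0.83), which had 149, 168 and 128 counts in all. Among the members themselves, r was 0.70 for Ccl11 and Cxcl1, 0.69 for Ccl7 and Cxcl1, 0.65 for Ccl2 and Ccl7 and for Cxcl1 and Il6, and −0.49 for Cxcl12 and Spp1.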

How the data were processed

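Single cells of mouse skeletal muscle were sequenced with Smart-seq2. The authors deposited raw read counts per gene and cell. Per the methods, single 50-base reads were split with bcl2fastq, trimmed with trim galore, mapped to GRCm38 with TopHat2 and Bowtie, and counted with featureCounts. Annotation release and strand setting are not given in the sources used here. Cells with few counts or genes, or with endothelial or immune signatures, had been dropped by the authors and the rest clustered with pagoda2. No doublet caller was run here.

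All 1753 labelled cells were used, and 1 column of the table was not used. The 92 spike-ins (1.31% of counts) entered neither library sizes nor tests. Cell totals ran from 46097 to 1055869 counts. Counts were scaled to 500000 per cell for levels, and detection was set at 100 scaled counts. Reads carry no molecular identifiers, so exact binomial intervals (95%) and limits (3 counts or cells) cover counting error only.

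Raw counts were summed per class and strain with 3 or more cells and tested with edgeR 4.0.16 (R 4.3.3, TMM, filterByExpr, quasi-likelihood test, strain as a block, Benjamini-Hochberg over all genes tested, 0.05). Sums were paired by strain label, and whether sums of a strain share animals is not given. Alternatives were DESeq2 1.42.0, RLE size factors, no filter on low counts, no block, plates as units, cells weighted alike, removal of cells with Ptprc or Pecam1, and each strain left out in turn. The test was also run on counts simulated without differences between strains, a setting unlike these data, and nothing is drawn from it here. Tables were read with pandas 2.3.3 and intervals computed with SciPy 1.17.1. Promoter windows came from RefSeq on GRCm38.p6.

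Named genes were all 10 members, the 3 genes most like each, and from each list up to 4 called genes with the largest log2 fold change. For Il6, 1 of the 3 like genes is not reported here. Members and lists were chosen with earlier results of these data known.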

Additional observations from a re-analysis of the deposited data

Results flagged for a closer look

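In 18 of 80 sets of 4 or 5 strains, 1 strain stood apart from the others by Dixon's criterion, which chance meets in about 1 in 20 sets. In 17 of them that strain was the highest. C57BL6 stood out in mural cells with Ccl11 at 510, Ccl9 at 27.9 and Il6 at 65.4, of which the last came from 1 cell. It was also highest for Il6 in cluster 1 (91.4) and for Ccl9 in clusters 8 (1.82, 96.9% from 1 cell) and 9 (1.71). Acta2GFP was highest for Spp1 in cluster 2 (127, 96.5% from 1 cell), cluster 1 (7.33), cluster 3 (5.22) and mural cells (5.89), and for Ccl7 in cluster 4 (86.8, 97.5% from 1 cell) and mural cells (7.02). PdgfrbGFP was highest for Ccl7 in cluster 2 (5.53, 95.2% from 1 cell) and Spp1 in cluster 6 (5.76, 90.1% from 1 cell). The pool was highest for Il33 in cluster 9 (13.9, 94.7% from 1 cell) and for Ccl9 in clusters 2 (0.503) and 4 (1.53). The 1 low value was Ccl11 in cluster 1 of PdgfrbGFP, at 263 against 416 to 427 in the others.

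Soleus minus gastrocnemius in endomysial cells had opposite signs in the pool and in PdgfrbGFP for 9 members, and the difference between the strains was not tested. The share of all genes with opposite signs was not computed, and Ccl9, Il6 and Spp1 were near the floor. The mix of clusters differed between the muscles, and within clusters 3, 6 and 8 the difference of Ccl11 was negative in both strains, at −147, −41.9 and −12.9 in PdgfrbGFP and −167, −106 and −113 in the pool. Over all endomysial cells it was −217 in the pool and 67.1 in PdgfrbGFP for Ccl11, −296 and 560.3 for Cxcl14, and −8.04 and 23.1 for Il33. It was −2.12 and 12.6 for Ccl7, and −0.183 and 0.0296 for Ccl9. The signs were the other way round for Cxcl1 (67.1 and −26.0), Cxcl12 (51.6 and −18.9), Il6 (2.16 and −3.33) and Spp1 (1.76 and −2.73).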

How the results depend on the processing

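Over the 20 called member differences and 231 alternatives of them, 196 kept the call, 35 lost it and 0 changed sign, and 10 differences kept it in every alternative run. Levels taken from summed counts (100 values) or without cells with Ptprc or Pecam1 (100 values) moved by less than 1 SD. Only 6 cells held Ptprc or Pecam1, with 0 in clusters 1, 2, 4, 5, 6 and 9, where levels could not move. Leaving these cells out therefore says little about how stable levels or calls are. Shares moved outside their interval in 41 of 100 cases at 20 scaled counts. They did so in 70 of 100 when cells were thinned to 40000 counts and any count left was taken as detection. Depth and threshold changed together there, so their parts cannot be told apart.

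DESeq2 called 4336 genes for mural cells, 2068 for perimysial cells, 796 for paramysial cells, 993 for cluster 10, 2560 among endomysial clusters and 848 for cluster 9 against 2, where edgeR called 2140, 787, 14, 55, 893 and 109. With plates as units the counts were 1294 for perimysial cells, 26 for paramysial cells, 111 for cluster 10, 1790 among endomysial clusters and 41 for cluster 9 against 2. Without the filter they were 274 for cluster 10 and 345 for cluster 9 against 2, and with cells weighted alike 33 for cluster 10. With each strain left out in turn they were 1230 to 2257 for mural, 395 to 1416 for perimysial and 10 to 64 for paramysial cells, 0 to 216 for cluster 10, 258 to 900 among endomysial clusters and 35 to 50 for cluster 9 against 2. The cause was not tested, and leaving out a strain also leaves fewer samples.

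Called members of cluster 10 were 7 with DESeq2 and 7 without the filter, against 3. For cluster 9 against 2 they were 0 with plates as units and 0 with cells weighted alike, against 2. With cells weighted alike Ccl2 (−4.69, adjusted p = 0.0540) and Ccl7 (−3.96, 0.0757) in mural cells and Cxcl1 in perimysial cells (−3.19, 0.0541) were lost, and Ccl11 in mural cells was called (−4.38, 0.0488). With strains left out, called members were 3 to 6 for mural cells, 0 to 4 for cluster 10, 2 to 4 among endomysial clusters and 0 to 1 for cluster 9 against 2.

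Without the replicate block, that is without pairing by strain, 8 genes were called for paramysial cells, 3 members for mural cells, where Ccl2 (−3.61, adjusted p = 0.0846) and Ccl7 (−3.74, 0.050) were lost, and 0 members for cluster 9 against 2, where Spp1 (3.20, 0.070) and Il33 (−3.69, 0.0991) were lost. Il33 in cluster 10 was lost as well (2.65, 0.0713). Sign changes without the block were all in uncalled differences, Cxcl12 (0.12) and Il6 (1.82) in mural cells, Ccl2 in perimysial cells (0.57), Ccl2 (2.55) and Ccl7 (2.19) in paramysial cells and Cxcl1 in cluster 9 against 2 (1.03).

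Further sign changes were also of uncalled differences. Cxcl12 in mural cells was 0.0204 with DESeq2, 0.0204 with RLE size factors and 0.0284 with cells weighted alike, and ranged from −0.42 to 0.20 with strains left out. The range for Il6, mural cells against fibroblasts, was −2.40 to 0.43. Spp1 in paramysial cells was −0.0294 with plates as units, and Cxcl1 in cluster 9 against 2 was 0.79. Il6 in cluster 10 was −1.40 without cells with Ptprc or Pecam1 and ranged from −0.45 to 5.17 with strains left out. In cluster 9 against 2 Ccl2 ranged from −1.51 to 2.96, Cxcl1 from −2.24 to 1.27 and Il6 from −0.76 to 2.06.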
